A study of Mus musculus with 96 samples.

Results

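The 4 libraries of Collaborative Cross strain CC004 are described here against the other strains of the panel. Collaborative Cross mice are a panel of inbred strains, each of which carries its own mosaic of the genomes of a common set of founder strains. The 4 libraries were the table columns labelled with that strain, out of 96 samples in all. They are called replicates 1 to 4, a numbering that gives no pairing with other strains. The numbers in the titles of replicates 1 and 2 are adjacent, as are those of replicates 3 and 4, and the pairs lie far apart in that numbering. The reference was the mean of the 38 other strains that had 2 or more libraries (88 libraries), with each strain given equal weight.

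The study measured total RNA by RNA-seq in primary osteoblast cultures of 42 strains. Calvarial cells from pups aged 3 to 5 days were grown for 48 hours and then held for 10 days in a medium that lets them lay down mineral (ascorbic acid plus beta-glycerol phosphate). Every strain was treated this way, no gene was altered and no agent was compared, so strain is the one difference the labels give between the groups. The labels do not say whether 2 libraries of a strain came from separate pups, litters or cultures. The p-values therefore reflect only how far libraries of a strain differ, which may be technical in part. The sources used here do not say what the title numbers stand for.

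Osteoblasts build bone by secreting type I collagen and a set of acidic, mineral-binding proteins, and then deposit calcium phosphate within that matrix. Some of them become buried as osteocytes, which secrete regulators such as sclerostin. Osteocalcin, a small protein made late in this program, is encoded in mice by a cluster of near-identical genes on chromosome 3. Cultures from the skull vault also hold other cells, among them macrophages, osteoclast precursors and cells of the fat lineage.

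Values were deposited as TPM (a transcript's share of the library, corrected for its length), and depth is not recorded in that unit. After division by a scaling factor per library they are given as scaled TPM, and differences are log2 of scaled TPM plus 0.5, which understates the change of genes with low values. The CC004 cultures expressed the bone matrix genes at high levels: Col1a1, a chain of type I collagen, stood at 2153, 2641, 5142 and 4289 scaled TPM in replicates 1 to 4, and Sparc, the matrix protein osteonectin, at 3960, 3924, 5310 and 5024. The Y-linked gene Ddx3y was at 27.9, 30.4 and 31.3 scaled TPM in replicates 1, 2 and 3 and at 0.213 in replicate 4. Xist, which is transcribed from the inactive X chromosome of females, was at 39.01 in replicate 4 and at no more than 0.075 in the other 3. By these genes replicate 4 had the pattern of a female source and the other 3 that of a male source. Replicates 3 and 4, whose title numbers are adjacent, thus differed in sex.

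The 4 libraries fell into 2 pairs. With distance taken as 1 minus Pearson's r across genes, replicates 1 and 2 were 0.0184 apart and replicates 3 and 4 were 0.0150 apart, while distances between the pairs ran from 0.0237 to 0.0369. The mean over all CC004 pairs was 0.0258, the 9th widest of 39 strains. Among the other strains with 4 libraries it was wider in CC008 (0.0276), CC041 (0.0271) and CC015 (0.0289) and narrower in CC038 (0.0218) and CC025 (0.0182). For replicates 3 and 4, 18 and 14 libraries of other strains were nearer than the farthest CC004 library. The nearest library to each CC004 library was another CC004 library. Replicate 2 was nevertheless the one farthest from the rest: it was 0.0369 from replicate 3 and 0.0366 from replicate 4, its scaling factor (1.27) was the highest of all libraries, and it had the most genes at or above 1 TPM (12334, where the range over libraries was 10783 to 12334).

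In limma, 2941 of 15760 genes differed between CC004 and the mean of the other strains at a false discovery rate of 0.05 (18.7%), of which 1691 were higher (10.7%) and 1250 lower (7.93%). CC004 ranked 9th of 39 strains in the number of genes called and had the fewest calls among the 6 strains with 4 libraries, whose other counts ran from 3350 in CC015 to 4756 in CC038. Most differences were small, with a median size of 0.43 on the log2 scale. At an unadjusted p under 0.05 by limma, 2756 genes were higher and 2277 lower, 31.9% of those tested. That is the base for the unadjusted counts of this comparison below. No such share was computed for the other fits. In 2628 of the 2941 genes all 4 CC004 libraries lay on the same side of the mean of the other strains. Without scaling, 2078 genes were higher and 664 lower, and after rescaling to the sum of protein-coding genes 2073 were higher and 953 lower, so the share of higher genes among the calls was 57.5% as reported, 75.8% without scaling and 68.5% by protein-coding sum.

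The count depended on what was taken as a replicate. When libraries of a strain with title numbers less than 20 apart were averaged into 1 value before the fit, which leaves CC004 with 2 values, 685 genes were called (390 higher and 295 lower), 676 of them among the 2941. This fit is called the averaged fit below. As a second check, each pair was compared with libraries of other strains whose title numbers lay within 20 of its own (18 libraries of 14 strains for replicates 1 and 2, and 11 libraries of 9 strains for replicates 3 and 4). In these comparisons 429 of the genes were called in the same direction with both pairs, 191 higher and 238 lower.

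All 4 CC004 libraries lay outside the range of every other library for 15 genes, 9 above (0.0571% of genes tested) and 6 below (0.0381%). All 15 were called, and 14 of them were also called in the averaged fit. Padi4 passed the expression filter only through CC004 libraries, so its place among them is not independent of the filter. The genes above were Sgip1, Noct, Gm9864, Mettl27, Commd8, Bglap3, Aldh9a1, Padi4 and Gm26848, and the genes below were Prkca, Pmvk, Plod3, Ereg, Syt11 and Polh. Without replicate 2, 20 genes lay above and 11 below, and without replicate 1 the counts were 15 and 7. Leaving out a CC004 library relaxes the rule, so these counts can only stay or rise and do not measure stability. On deposited TPM without scaling, 10 lay above and 2 below.

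Prkca, which encodes protein kinase C alpha, a calcium- and lipid-activated signalling kinase, was close to 0 in CC004. The gene lies on the GENCODE annotation of GRCm38 at chr11:107933387-108343928. It stood at 0.232, 0.447, 0.251 and 0.0597 scaled TPM in replicates 1 to 4, and the means of the other 38 strains ran from 3.00 to 7.67. No CC004 library came near the other strains, and replicate 4 was the lowest. The difference was -2.78 on the log2 scale (SE 0.12, adjusted p 7.08e-27), with an adjusted p of 1.06e-11 in the averaged fit, and it was called against libraries of near title numbers for both pairs.

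One coding transcript of Prkca was at a mean of 0.0626 scaled TPM in CC004 and 1.70 in the other strains, and another coding transcript was at 0.00399 and 1.58. A non-coding transcript was low as well, at a mean of 0.0190 in CC004 and 1.33 in the others. Another non-coding transcript was at a mean of 0.162 in CC004 and 0.165 in the others, and held 65.4% of the gene's TPM in CC004 against 3.46% elsewhere. It stood at 0.150, 0.353 and 0.144 in replicates 1 to 3 and was listed at 0 in replicate 4, where the first coding transcript was at 0.0558. Only 0.184% of the sequence of Prkca, counted in stretches of 31 bases, occurs in another gene.

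The other protein kinase C genes and the neighbours of Prkca on chromosome 11 did not share its difference. These genes were looked at after the value of Prkca was seen. None of the 7 other protein kinase C genes tested passed the adjusted threshold by limma, and 2 had an unadjusted p under 0.05, both higher. Over all genes 31.9% had such a p. Prkcd was at 17.8, 19.8, 19.2 and 18.1 scaled TPM against a mean of 18.3 in the other strains, and Prkci at 11.03, 11.8, 11.9 and 12.5 against 11.8. Among the 5 tested coding genes on either side of Prkca in gene order, Cacng4 was higher by 0.32 (adjusted p 0.00388), Axin2, a target and inhibitor of Wnt signalling, differed by -0.71 (adjusted p 0.0411, and 0.436 in the averaged fit), and the other 8 did not pass.

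Further genes also lay beyond every other library. Sgip1 (chr4:102741297-102973628), which encodes a protein of the endocytic machinery, was at 15.4, 16.6, 31.4 and 21.6 scaled TPM in replicates 1 to 4, and the highest mean among the other strains was 12.1. All 4 libraries were above that value. The difference was 2.87 (SE 0.16, adjusted p 3.04e-21). A single non-coding transcript held 99.8% of the gene's TPM in CC004 and 95.5% in the others, so nearly all of the difference lies in that transcript.

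Noct, which encodes nocturnin, a phosphatase with circadian expression, was at 33.7, 37.7, 59.2 and 55.1 scaled TPM against strain means of 5.81 to 24.3. The values of replicates 3 and 4 were above those of replicates 1 and 2, and none overlapped with another strain (difference 1.80, SE 0.12, adjusted p 8.86e-19). Mettl27, a member of a methyltransferase-like family, was nearly level across the libraries at 6.27, 5.56, 6.12 and 6.08, where the other strains lay between 1.84 and 2.92 (difference 1.21, SE 0.10, adjusted p 3.3e-14). Commd8, one of a family of regulators of protein sorting, was at 14.58, 15.001, 17.49 and 17.11 against 6.41 to 12.3 (difference 0.81, SE 0.04, adjusted p 3.92e-23). All 3 genes were also called in the averaged fit, at adjusted p of 5.74e-07, 2.98e-07 and 6.72e-09.

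Among the genes below every other library, Pmvk encodes phosphomevalonate kinase, an enzyme of cholesterol synthesis. It was at 3.53, 4.81, 3.51 and 3.30 scaled TPM, and the lowest mean of another strain was 5.59 (difference -1.15, SE 0.12, adjusted p 2.33e-11). Polh, a DNA polymerase that copies past damaged bases, was at 2.92, 3.00, 2.34 and 3.80 against 3.91 or more (difference -1.02, adjusted p 2.47e-09). Ereg, the growth factor epiregulin, was low in all libraries at 0.160, 0.208, 0.307 and 0.310 against 0.396 to 12.3 in the other strains, and its adjusted p of 8.7e-05 became 0.175 in the averaged fit. Plod3, a collagen lysyl hydroxylase, and Syt11, a synaptotagmin, differed by -0.64 each (adjusted p 5.53e-07 and 3.64e-06).

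Aldh9a1, an aldehyde dehydrogenase, was higher by 0.54 (adjusted p 1.34e-06), with values of 8.44 to 9.69 scaled TPM against strain means of 3.79 to 7.82. Padi4, which converts protein arginine to citrulline, was at 0.656, 3.95, 0.145 and 0.111 scaled TPM where the highest mean elsewhere was 0.0417. Its level in replicate 2 was far above that in the other 3, and replicates 3 and 4 were near 0. No library of another strain reached the filter of 0.5 TPM, so Padi4 was tested only because replicates 1 and 2 did. Its call was thus favoured by the filter and adds no support. Without replicate 2 its difference was 0.61. The non-coding gene Gm26848 was higher by 1.01 (adjusted p 1.01e-13). Gm9864 shares 85.2% of its sequence with other genes and is uncertain.

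**Figure D1:**
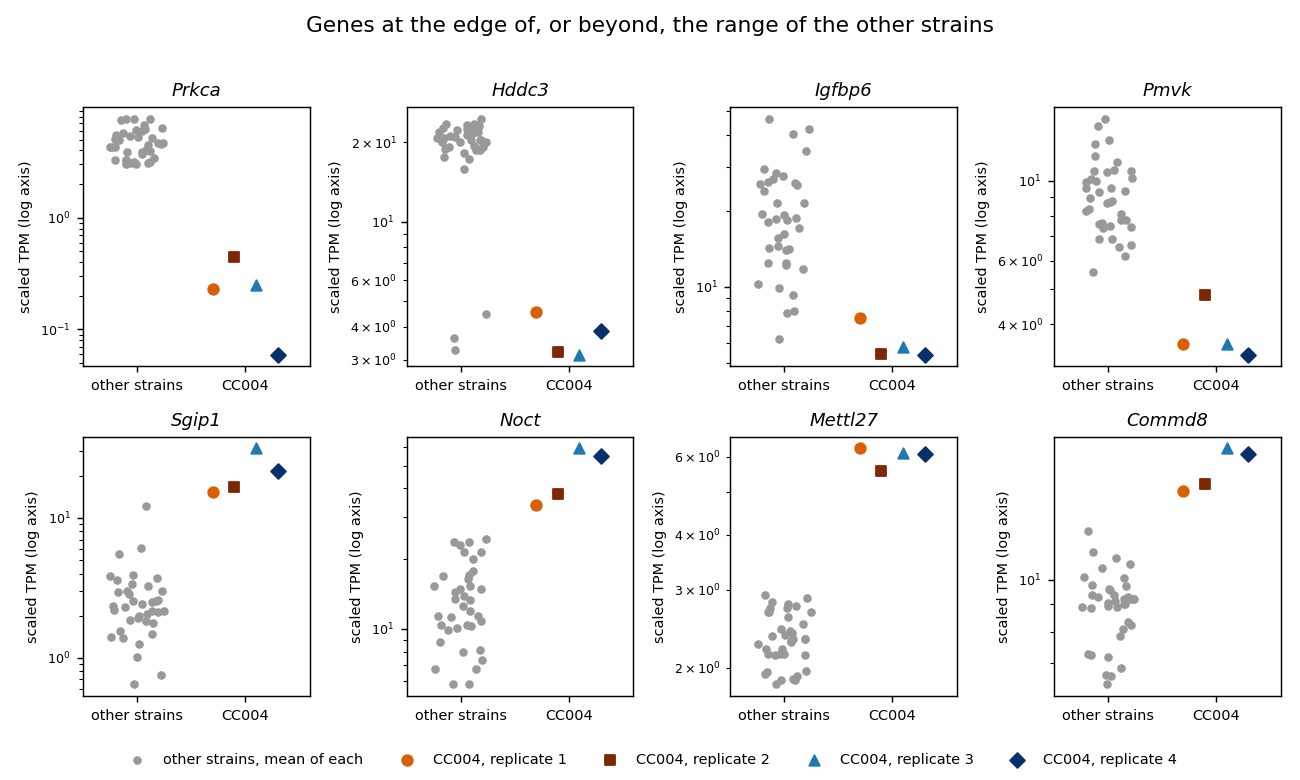
Scaled TPM on a log axis for 8 genes: grey points are the means of the 38 other strains, and coloured symbols are the 4 CC004 libraries. The CC004 values of Prkca, Pmvk, Sgip1, Noct, Mettl27 and Commd8 lie outside the strain means, those of Igfbp6 lie below the lowest of them except in replicate 1, and those of Hddc3 lie with a group of 3 other strains.

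Several genes placed CC004 with a minority of strains rather than alone. Hddc3, which encodes a hydrolase, was at 4.56, 3.21, 3.14 and 3.85 scaled TPM, and the mean over the other strains was 19.4 with a lowest strain at 3.28 (difference -2.16, SE 0.07, adjusted p 1.74e-32). It ranked 37th of 39. Scn3a, a voltage-gated sodium channel, was at 2.72, 1.67, 3.65 and 3.95 against a mean of 0.493 and a highest strain at 2.91 (difference 2.01, SE 0.18, adjusted p 1.34e-13). The zinc finger gene Zfp738 was at 0.0352, 0.0797, 0.175 and 0.0709 against a mean of 3.30 (difference -2.62, SE 0.06, adjusted p 6.69e-41), and CC004 ranked 38th. Ednrb, an endothelin receptor, was at 3.40, 34.9, 1.71 and 1.45 against 1.28, so its difference of 2.12 (adjusted p 0.000173) rests largely on replicate 2, and was 1.18 (adjusted p 0.0442) without it. Klk1b22, a kallikrein, was at 0.463, 0.452, 0.863 and 1.01 against a mean of 0.0212, and 35.2% of its sequence is shared with other genes.

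Among non-coding genes, AA465934 was at 17.7, 13.1, 19.7 and 20.1 scaled TPM against a mean of 4.63 (difference 2.56, adjusted p 1.13e-21), and one other strain reached 20.1. Gm14291 was at 1.49, 1.65, 4.31 and 3.65 against 0.510 (difference 1.66, adjusted p 1.11e-11). Gm22973 was low in all 4 libraries at 0.360, 0.935, 0.638 and 0.716 against 38.5 (difference -4.45, adjusted p 2.82e-25), and 33.3% of its sequence is shared with other genes. The small nucleolar RNA gene Snord49b was listed at 0 in replicates 1, 2 and 4 and at 128.4 in replicate 3; its strain means ran from 0 to 308. Gm24727, a copy of another gene, was listed at 0 in 3 libraries and at 0.386 in replicate 4, against 5.02.

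The osteocalcin cluster was divided among its copies in CC004 unlike in most strains. To show how little separates the copies, the coding sequences of Bglap2 and Bglap3 in the GENCODE annotation of GRCm38 are given here without their stop codons, 5′ to 3′, with capitals at the bases where they differ from each other. They differ at 9 of 285 bases, whereas Bglap and Bglap2 differ at 4 and Bglap and Bglap3 at 13.
Bglap2: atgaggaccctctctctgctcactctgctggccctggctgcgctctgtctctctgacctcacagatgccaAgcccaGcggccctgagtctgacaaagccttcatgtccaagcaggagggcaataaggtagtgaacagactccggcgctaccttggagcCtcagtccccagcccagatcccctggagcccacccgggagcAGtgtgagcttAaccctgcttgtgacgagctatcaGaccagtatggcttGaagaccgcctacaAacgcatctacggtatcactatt
Bglap3: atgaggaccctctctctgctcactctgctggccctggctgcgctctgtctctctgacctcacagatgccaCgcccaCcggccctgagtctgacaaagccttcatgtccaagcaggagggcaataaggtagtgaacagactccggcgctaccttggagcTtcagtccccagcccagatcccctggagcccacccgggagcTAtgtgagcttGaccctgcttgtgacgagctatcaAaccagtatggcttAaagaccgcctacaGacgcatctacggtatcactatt
These are reference sequences, and the sequence of the cluster in CC004 itself was not analysed here.

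Values listed under Bglap3 were 151.8, 119.1, 459.3 and 412.5 scaled TPM in replicates 1 to 4, and the highest mean among the other strains was 44.2 in CC040. All 4 were above every other library. The difference was 6.26 (SE 0.29, adjusted p 2.94e-25). Values listed under Bglap2 were 7.14, 2.26, 16.7 and 11.6, against a mean of 867 in the other strains (difference -5.98, SE 0.44, adjusted p 1.66e-16). Bglap was at 801, 571, 2138 and 2165 and did not pass (difference 1.06, adjusted p 0.16).

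The sum of the 3 copies, which lie on the annotation at chr3:88383501-88384464 (Bglap), chr3:88377736-88378699 (Bglap2) and chr3:88368616-88372743 (Bglap3), was within the range of the panel. It was 960, 693, 2614 and 2589 scaled TPM in the 4 libraries, and the means of the other strains ran from 71.3 to 4124 with a median of 1611, so CC004 ranked 18th of 39. The share under Bglap3 was nearly constant across the libraries at 15.8%, 17.2%, 17.6% and 15.9%, although the sum differed between the pairs, and that under Bglap2 was 0.743%, 0.326%, 0.639% and 0.448%. In the other strains the median shares were 0.165% for Bglap3 and 52.7% for Bglap2. One other strain, CC071, had a like division at a far lower sum, with 17.5% under Bglap3 and 0.997% under Bglap2, and CC040 had 5.15% and 41.5%. In CC045 the share under Bglap2 was also low (0.374%), but that under Bglap3 was 0.213%.

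Of the sequence of Bglap2, 96.7% occurs in other genes in stretches of 31 bases, and for Bglap and Bglap3 the figures are 59.5% and 16.8%. The sources used here do not say how the counting divided reads among copies, so the values of the single copies are uncertain and the sum is the firmer measure. In CC004 one transcript of Bglap3 held 93.9% of the TPM under Bglap3, against 34.3% in the other strains.

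**Figure D2:**
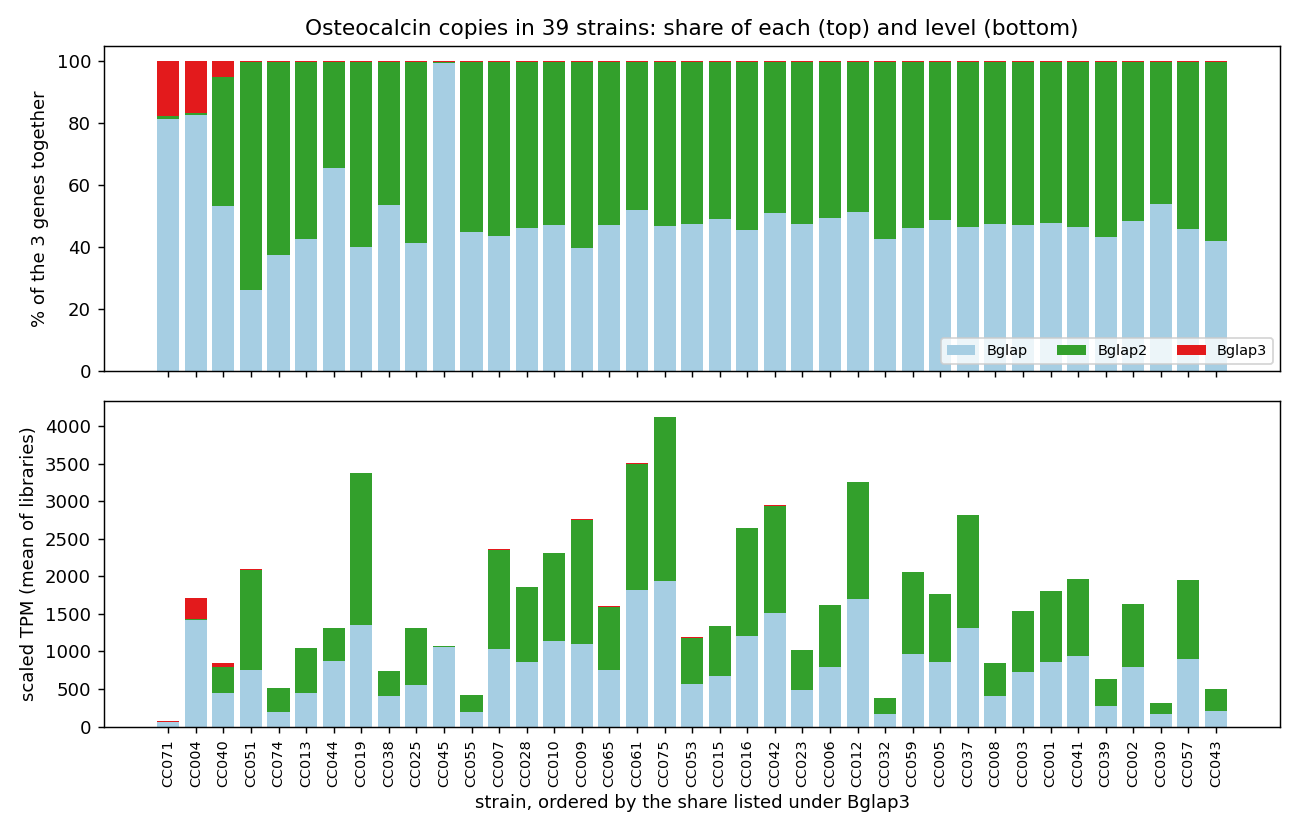
Share of the 3 osteocalcin genes (top, percent of their sum) and their stacked level in scaled TPM (bottom) in 39 strains, each bar a mean over the libraries of a strain, ordered by the share under Bglap3. CC071 and CC004 are the 2 strains with more than 15% under Bglap3 and under 1% under Bglap2, and the sum in CC004 is near the middle of the panel.

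Other large differences also lay among genes that share sequence with copies. Of the 334 genes called with a difference of at least 1 on the log2 scale, 122 share 30% or more of their sequence with other genes. The share of such genes among all genes tested is not given here, so the count alone does not show an excess among large differences. Rpl12, a ribosomal protein, was at 793, 594, 768 and 748 scaled TPM against a mean of 160, and its copy Gm9396 at 201.1, 115.7, 184.0 and 198.4 against 19.5, while the copy Gm10275 was at 25.5, 6.86, 10.3 and 7.91 against 1165. Added together with Gm11425 they came to 1025, 721, 965 and 959 against a strain median of 1368, a difference of -0.53, so that the sum went the opposite way from Rpl12 alone. Tpm3-rs7 was higher by 2.00, and its sum with Tpm3 differed by -0.055. For Tpm3-rs7 CC004 ranked only 20th of 39, at a mean of 17.1 against a strain median of 14.1. Rps25 (-2.60) and Atp5g2 (-3.60) were lower, with values that vary widely among strains, and CC004 ranked 28th for both. Rps25 was at a mean of 9.01 against a strain median of 11.3, where the other strain means ran from 6.51 to 1110. Gm4724, Gm14305, Gm14296, Zfp973, Zfp965 and Zfp990 differed by -2.22 to -3.50, and Zfp991, Zfp982, Gm2163, Gm13305 and Gm3739 were higher by 1.48 to 3.37. The genes given here singly share 47.4% to 100.0% of their sequence with other genes and are uncertain, apart from Rpl12 (14.4%) and Zfp982 (24.7%), and the values of Rpl12 are uncertain through its copies. Some differences remained when copies were summed: -2.57 for Rps25, -3.74 for Atp5g2, -1.97 for the family of Gm4724 and Gm14305, -2.24 for that of Zfp965 and Zfp973 and 1.96 for that of Zfp991. The summed Rps25 mean was 9.29 against a strain median of 11.6 and a highest strain of 1110, and CC004 ranked 28th. For Atp5g2 the sum was 0.179 against a median of 3.08 and a highest strain of 137, and CC004 ranked 33rd. The families of Gm4724, Zfp965 and Zfp991 ranked 38th, 37th and 2nd. The sum was 0.36 for the family that holds both Zfp982 and Zfp990, and 0.41 for that of Gm13305.

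Within the bone program, CC004 differed from the other strains in a few members. Of 20 osteoblast and mineralization genes tested, 4 were higher (among them Bglap3, Phex and Sparc) and 2 lower (Bglap2 and Slc20a1), with a median difference of 0.25 against 0.0034 over all genes, of which 10.7% were higher and 7.93% lower. Of 14 osteocyte genes, 3 were higher (Mepe, Sost and Fgf23) and 2 lower (Kcnk2 and Tnfrsf11b). Of these 11 calls, those of Bglap2 and Bglap3 were also made in the averaged fit. Without replicate 2, 6 of the 20 osteoblast and mineralization genes were higher and 2 lower.

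Mepe, a matrix phosphoglycoprotein that restrains mineral growth, was at 19.4, 14.1, 74.8 and 76.1 scaled TPM in replicates 1 to 4, against strain means of 0.812 to 34.4. Replicates 3 and 4 were above every other strain mean and replicates 1 and 2 were within the range (difference 2.34, SE 0.46, adjusted p 0.000161, and 0.111 in the averaged fit). Sost, which encodes sclerostin, was at 15.9, 6.71, 83.3 and 76.0 against a mean of 18.9, so that one pair was below the mean and the other far above it. Its difference of 1.84 (SE 0.57, adjusted p 0.0208) is that of log values, in which strains with little Sost weigh more. Phex, an endopeptidase that controls phosphate handling, was at 26.6, 26.9, 64.8 and 75.4 against 20.7 (difference 1.47, adjusted p 0.00525).

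The central osteoblast factors did not pass with all 4 libraries. Runx2, the master regulator, was at 15.3, 12.4, 17.3 and 23.9 scaled TPM against 13.4 (adjusted p 0.103), Sp7, which acts after it, at 32.65, 20.05, 45.56 and 45.32 against 34.4 (adjusted p 0.786), and Alpl, the alkaline phosphatase, at 169.3, 149.1, 311.3 and 271.7 against 182.7 (adjusted p 0.347). In each of them replicates 3 and 4 were the higher pair. Without replicate 2, Runx2 passed by limma (difference 0.52, adjusted p 0.0396), and Sp7 and Alpl did not (adjusted p 0.366 and 0.209). Tnfrsf11b, the decoy receptor osteoprotegerin that restrains osteoclast formation, was at 7.79, 10.9, 2.40 and 2.59 against 12.1, and replicates 3 and 4 were below the lowest mean elsewhere (3.76; difference -0.98, adjusted p 0.0092). Kcnk2, a potassium channel, differed by -0.60, and Slc20a1, a phosphate transporter, by -0.73. Fgf23, the phosphate hormone, was close to 0 in 3 libraries and at 0.520 in replicate 2, and without that library its difference was 0.063 (adjusted p 0.721).

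Among 23 collagen genes, 5 were higher and 0 lower by limma (9 and 0 at an unadjusted p under 0.05): Col22a1 (1.30), Col11a2 (0.98), Col24a1 (0.76), Col1a2 (0.39) and Col5a2 (0.31). Over all genes 10.7% were higher and 7.93% lower, and 31.9% passed the unadjusted threshold in either direction. In the averaged fit the adjusted p of the 5 ran from 0.105 to 0.554, and leaving out replicates 3 or 4 brought the 5 to 2 and 3. Col1a2, the second chain of type I collagen, was at 7038, 8140, 11774 and 9372 scaled TPM against a mean of 7025, with all 4 libraries above that mean. Col5a2, a chain of the fibril-initiating type V collagen, was at 824, 885, 1235 and 1102 against 814.

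Of 28 enzymes that modify and cross-link collagen 3 were higher and 3 lower, near the share of 18.7% called over all genes. Loxl4, a lysyl oxidase, was at 82.5, 89.4, 269.5 and 226.3 scaled TPM against 51.6, and replicates 3 and 4 were above the highest strain mean of 159 (difference 1.80, SE 0.35, adjusted p 0.000103, and 0.112 in the averaged fit). Pcolce2, an enhancer of procollagen cleavage, was higher by 1.17 and Plod2 by 0.49. The hydroxylases P4ha2 (-0.66), Plod1 (-0.34) and Plod3 (-0.64) were lower, and Plod3, at 35.2, 42.5, 45.0 and 40.8 against 48.1 to 91.7, is the member that also held in the averaged fit (adjusted p 0.0274).

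Of 31 proteoglycans and matrix glycoproteins, 6 were higher and 5 lower (5 and 10 without replicate 2). Over all genes 10.7% were higher and 7.93% lower, and 2 of the 31 were called in the averaged fit. The higher ones included Thbs4 (1.07), Tnc (0.73) and Cilp (1.12), and the lower ones Fbln2 (-1.07), Smoc1 (-0.98) and Omd (-0.58). Smoc1, a calcium-binding regulator of BMP signalling, was low in all 4 libraries at 0.782, 1.53, 1.25 and 1.05 scaled TPM against a mean of 3.04. Cilp was high through replicate 2 (11.3, where the other 3 were at 0.696 to 2.96), and its difference without that library was 0.46 (adjusted p 0.367). Among 20 matrix proteases and inhibitors 4 were higher and 2 lower, against the same shares over all genes. The higher ones were Mmp9 (1.58), Ctsb (0.88), Timp4 (0.38) and Ctsk (0.37), and the lower ones Timp1 (-1.10) and Timp2 (-0.21). Ctsk, the collagen-degrading cathepsin K, was level across the libraries at 263, 224, 262 and 271 against 204, and was also called in the averaged fit (adjusted p 0.0208), as was Ctsb (adjusted p 0.0489).

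In the signalling lists members were called in both directions, where 18.7% of all genes were called. By limma, of 43 Wnt genes 6 were higher and 4 lower, of 45 BMP and TGF-beta genes 6 were higher and 6 lower, and of 26 FGF and IGF genes 3 were higher and 3 lower. Of 16 hedgehog and parathyroid hormone genes 2 were higher (Hhip, 1.31, and Gli2, 0.33). Of 10 Notch genes 0 were called by limma. At an unadjusted p under 0.05, 1 of them was higher, where 31.9% of all genes passed in either direction.

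Some single members stood at the edge of the panel. Igfbp6, which binds and restrains insulin-like growth factor II, was the lowest of the 39 strains at 7.50, 5.43, 5.79 and 5.39 scaled TPM, where the other means ran from 6.23 to 46.4 (difference -1.50, SE 0.16, adjusted p 3.69e-11, and 3.04e-05 in the averaged fit). Its relative Igfbp7 was the highest at 185.6, 164.2, 223.2 and 224.1 against 60.3 to 197.95 (difference 0.76, adjusted p 9.25e-06, and 0.0196 in the averaged fit). The differences of both genes were called against libraries of near title numbers for each pair.

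Among BMP and TGF-beta genes, Grem1, a secreted BMP antagonist, was the lowest of the 39 strains at 2.70, 2.93, 4.91 and 4.93 scaled TPM against 5.55 to 70.3 (difference -1.49, SE 0.29, adjusted p 0.000115, and 0.139 in the averaged fit). Id4, an inhibitor of DNA binding induced by BMP, was at 13.3, 17.6, 8.40 and 7.23 against 4.22 and was called in the averaged fit (difference 1.51, adjusted p 1.78e-05). Bmp7, a BMP ligand, was the highest at 0.654, 0.386, 1.42 and 1.58 against 0.0225 to 0.874, with only replicates 3 and 4 above the other means (difference 0.84, adjusted p 1.49e-07). Chrdl1 was higher (0.93), and Tgfbi, a secreted matrix protein induced by TGF-beta, was lower (-0.71).

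Among Wnt genes, Lrp4, a receptor to which sclerostin binds, was the highest strain at 16.5, 15.7, 35.8 and 29.4 scaled TPM against 5.14 to 20.7, again through replicates 3 and 4 (difference 0.99, adjusted p 2.28e-05, and 0.0839 in the averaged fit). Wif1, a secreted Wnt inhibitor, was higher by 0.90 and Fzd4, a Wnt receptor, by 0.83, while the secreted Wnt modulator Sfrp4 (-0.87) and the intracellular inhibitor Nkd2 (-0.76) were lower. Dkk3, a member of the dickkopf family of Wnt modulators that was picked out after its values were seen, is the one Wnt gene that was also called in the averaged fit (difference -0.64, adjusted p 0.015). In the FGF list Fgf7 (0.55) and Fgfr1 (0.39) were higher and Etv4 (-0.82) and Spry2 (-0.60), which are induced by FGF signalling, were lower. Vdr, the vitamin D receptor, was at 8.05, 6.80, 14.6 and 17.5 against 5.01 (difference 1.21, adjusted p 7.66e-07, and 0.0133 in the averaged fit), and Efnb2, an ephrin ligand, was the lowest strain at 2.94, 2.41, 1.81 and 2.70 against 2.63 or more (difference -0.68, adjusted p 3.03e-06).

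Of 27 craniofacial patterning genes 0 were higher and 3 lower by limma, where 7.93% of all genes were lower. At an unadjusted p under 0.05, 1 was higher and 5 lower (22.2%), against 31.9% of all genes in either direction. Twist1, a transcription factor of the cranial mesenchyme, was the lowest strain at 19.6, 19.6, 14.4 and 12.6 scaled TPM against 17.5 to 36.0 (difference -0.50, adjusted p 0.00323), Prrx2 differed by -0.46 and Msx2 by -0.44. The 3 calls were lost in the averaged fit, at adjusted p of 0.144, 0.18 and 0.117.

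A further 4 genes were followed because published work on bone mineral density genes and osteoblast co-expression names them: Cadm1, a cell adhesion molecule, Adgrd1, an adhesion receptor, B4galnt3, a glycosyltransferase, and Dock9, a guanine nucleotide exchange factor. Cadm1 was at 103, 65.3, 227 and 221 scaled TPM against strain means of 15.5 to 169.1, so that replicates 3 and 4 exceeded every other mean (difference 1.55, SE 0.33, adjusted p 0.00054, and 0.215 in the averaged fit). Adgrd1 was at 7.54, 7.84, 10.6 and 11.7 against 6.33 (difference 0.59, adjusted p 0.00132). B4galnt3 (0.25) and Dock9 (0.28) did not pass, at adjusted p of 0.649 and 0.236. That choice may rest on these libraries, so the list is not independent evidence of a direction.

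Of 32 genes induced by interferon, 16 were lower in CC004, 15 were not called and 1 was higher, where 7.93% of all genes were lower, and the median difference was -0.61. These genes are switched on through interferon receptors and STAT factors and act against viruses. The count was 11 to 20 when 1 CC004 library was left out, 3 in the averaged fit (Ifit3, Isg15 and Mx2) and 1 when the comparison was limited to the 6 strains with 4 libraries. Against libraries of near title numbers it was 3 for replicates 1 and 2 and 28 for replicates 3 and 4.

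Ifit3, whose protein helps to hold back viral RNA, was at 0.931, 1.80, 0.707 and 1.26 scaled TPM in replicates 1 to 4, against a mean of 10.0 and a lowest strain mean of 1.11 (difference -2.17, SE 0.29, adjusted p 5.55e-08, and 0.00333 in the averaged fit). It shares 56% of its sequence with other genes, and its sum with Ifit3b was 1.71, 3.42, 1.46 and 2.00 against a strain median of 8.97. Isg15, a ubiquitin-like modifier, was at 5.00, 3.53, 2.55 and 2.70 against 13.9 (difference -1.56, adjusted p 0.000195). Mx2, a GTPase with antiviral activity, was at 0.632, 0.573, 0.260 and 0.323 against 8.18 (difference -1.54, adjusted p 2.49e-06). All 4 libraries were under the mean of the other strains for each of these genes, and the lowest strain means were lower still for Isg15 and Mx2, so CC004 was at the low end of the panel rather than beyond it.

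Ifit1 was at 2.78, 3.22, 1.31 and 1.73 scaled TPM against 8.60 (difference -1.37, adjusted p 0.00428), with the second lowest level of the 39 strains. Usp18, which removes Isg15 from proteins, differed by -1.10, Oasl2 and Oas1a, of the oligoadenylate synthetase family, by -1.12 and -1.21, Mx1 by -1.13, Bst2, which tethers virus particles, by -0.78 and Ifit2 by -0.70. The transcription factor Irf7 (-0.72, adjusted p 0.0805) did not pass. The one higher member, Ifi27l2a, was at 141, 384, 34.5 and 42.2 against a mean of 33.9 and a range of 0 to 213 (difference 2.92, SE 0.44, adjusted p 1.14e-06), and it stood far higher in replicates 1 and 2 than in replicates 3 and 4.

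Promoters of 3 of the lower interferon genes that hold a known element are given to show it; the element is one that binds interferon-activated factors. The motif searched was GAAA, any 2 bases and GAAA again, on both strands. It was found in 8 of the 12 lower members that matched a promoter in the RefSeq table (GRCm38.p6, 250 bases before to 50 after the start), in 8 of 11 other members of the list (72.7%) and in 3.49% of all 27025 promoters. The promoters of Isg15 (chr4:156200769-156201068, minus strand, 3 overlapping matches), Ifit1 (chr19:34640639-34640938, plus strand) and Ifit3 (chr19:34583279-34583578, plus strand) follow, 5′ to 3′, with the matches or their reverse complement in capitals.
Isg15: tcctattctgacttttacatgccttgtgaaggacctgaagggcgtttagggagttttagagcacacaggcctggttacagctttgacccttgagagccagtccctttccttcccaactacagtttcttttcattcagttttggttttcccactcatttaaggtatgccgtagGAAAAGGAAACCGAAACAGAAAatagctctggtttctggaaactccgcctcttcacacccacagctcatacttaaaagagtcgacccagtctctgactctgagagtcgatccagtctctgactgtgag
Ifit1: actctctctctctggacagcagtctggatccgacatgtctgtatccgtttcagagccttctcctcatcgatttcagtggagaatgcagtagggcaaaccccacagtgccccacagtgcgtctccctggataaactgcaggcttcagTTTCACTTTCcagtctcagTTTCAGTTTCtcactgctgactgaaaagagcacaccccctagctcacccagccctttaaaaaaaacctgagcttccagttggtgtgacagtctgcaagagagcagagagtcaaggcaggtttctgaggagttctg
Ifit3: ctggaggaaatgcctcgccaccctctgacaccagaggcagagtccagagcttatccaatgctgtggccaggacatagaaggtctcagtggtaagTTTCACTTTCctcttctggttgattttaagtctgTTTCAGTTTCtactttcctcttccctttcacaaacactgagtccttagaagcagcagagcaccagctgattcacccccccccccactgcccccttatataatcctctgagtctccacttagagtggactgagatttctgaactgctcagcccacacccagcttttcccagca
The share with the motif was 66.7% in the lower members, no higher than in the others. A match is a stretch of letters in a reference sequence, and binding was not measured.

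**Figure D3:**
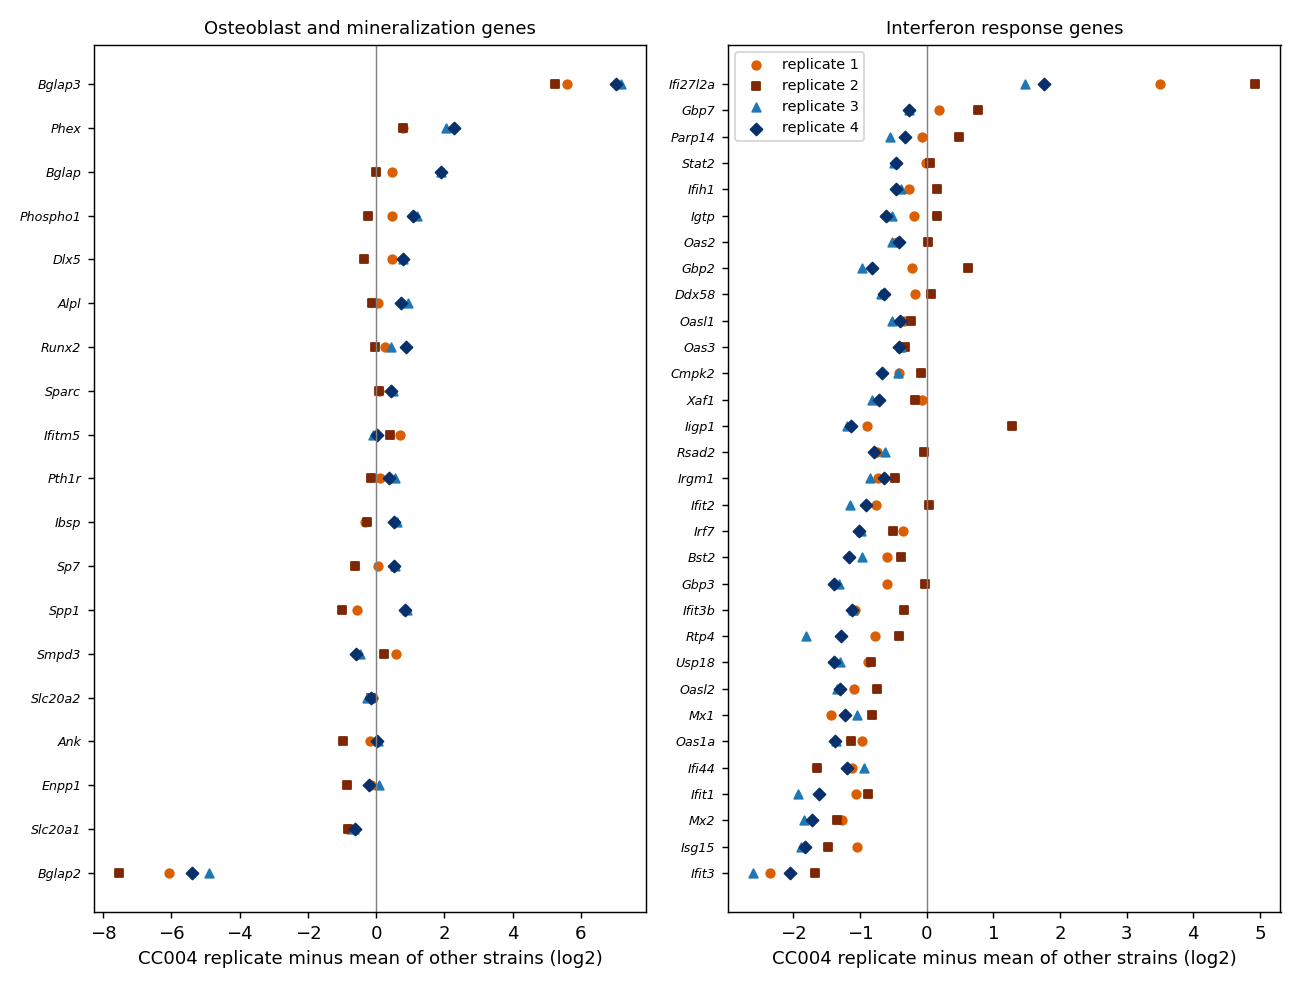
Each CC004 library minus the mean of the 38 other strains, on the log2 scale, for 19 osteoblast and mineralization genes (left) and 31 interferon genes (right), with 1 tested gene of each list not plotted, ordered by the mean of the 4 libraries. Among bone genes replicates 3 and 4 (blue) lie to the right of replicates 1 and 2 (orange and brown) for most genes, and among interferon genes most symbols of all 4 libraries lie to the left of 0.

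The 2 pairs of CC004 libraries also differed from each other. In a fit that treated libraries with title numbers within 5 as 1 run, 2688 genes differed between replicates 1 and 2 and replicates 3 and 4 (17.1%), 1496 higher in replicates 1 and 2 (9.49%) and 1192 lower (7.56%). Without replicate 2 the count was 1019, without replicate 3 it was 1569 and without replicate 4 it was 1557. Without scaling, 3535 were higher and 352 lower, since the median of all genes then moved by 0.22, so the differences below are relative to that median. Replicates 1 and 2 had higher scaling factors (1.08 and 1.27) than replicates 3 and 4 (0.955 and 0.979). Of the 2941 genes called against the other strains, 631 also differed between the pairs. Whether the pairs differ in pup, litter, culture or sequencing cannot be told apart. Libraries within other strains were not compared this way, so such a split is not shown to be particular to CC004.

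Of 20 osteoblast and mineralization genes 14 were lower in replicates 1 and 2 and 0 higher by limma (15 and 2 at an unadjusted p under 0.05), where 7.56% of all genes were lower and 9.49% higher. The median difference was -0.78, and the other 6 did not pass. Leaving out 1 library gave 3 to 11 of them, with 3 when replicate 2 was left out, and there were 4 without scaling. The secreted phosphoproteins that bind mineral were lower in 4 of 4, and in 2 without replicate 2: Mepe (-2.16), Spp1 (-1.65), Dmp1 (-0.95) and Ibsp (-0.85). Spp1, osteopontin, was at 1613, 1200, 4463 and 4254 scaled TPM in replicates 1 to 4 (adjusted p 0.000428), and the mean of the other strains, 2821, lay between the pairs. Sost showed the largest difference of the osteocyte genes at -2.88 (SE 0.67, adjusted p 0.00255), and Tnfrsf11b went the other way at 1.70 (adjusted p 0.000222).

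Of 31 proteoglycans and matrix glycoproteins 20 were higher in replicates 1 and 2 and 6 lower, where 9.49% of all genes were higher and 7.56% lower. Without replicate 2 the counts were 6 and 3. Fbln2, an extracellular matrix fibulin, was at 86.5, 86.6, 38.4 and 36.1 scaled TPM (difference 1.21, adjusted p 0.00494), and Omd, osteomodulin, was at 48.5, 39.5, 20.4 and 21.7 (difference 1.04). Thbs4, a thrombospondin, was lower at 2.87, 2.17, 7.92 and 8.49 (difference -1.54, adjusted p 0.00238). Of 25 glycolysis and hypoxia genes 18 were lower in replicates 1 and 2, among them Car9, a carbonic anhydrase induced by low oxygen, at 26.56, 14.96, 52.44 and 57.78 (difference -1.44). That count was 4 without scaling and 7 to 12 when 1 library was left out. Of 20 proliferation genes 11 were higher and of 24 genes of the endoplasmic reticulum and its stress response 13 were higher and 2 lower. Without replicate 2 these counts of higher genes were 6 and 11.

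The single genes that differed most between the pairs were higher in replicates 1 and 2 with replicate 2 in the lead. Egfl6, a secreted matrix protein with growth factor-like repeats, was at 20.2, 68, 1.50 and 1.40 scaled TPM (difference 4.27, adjusted p 5.96e-05). Scg2, secretogranin II, was at 23.6, 71.2, 2.28 and 2.51 (difference 3.85, adjusted p 8.12e-07). Otor, otoraplin, was at 4.51, 11.04, 0.183 and 0.247 (difference 3.41, adjusted p 1.04e-08). For these genes the pairs did not overlap, and replicates 3 and 4 were close to each other. Without replicate 2 the differences were 3.41, 3.06 and 2.81, and all 3 passed.

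Car3, a carbonic anhydrase of fat and muscle, was at 5.18, 70.3, 0.742 and 0.884 scaled TPM (difference 3.93), and Ccl8, a chemokine, at 3.15, 50.3, 0.514 and 0.412 (difference 3.82). Wfdc17, a secreted protein of myeloid cells, was at 16.2, 103, 3.01 and 2.36 (difference 3.72). In these genes replicate 2 was far above replicate 1. Without it the differences were 2.11 for Car3 (adjusted p 0.000718), 1.92 for Ccl8 (adjusted p 0.237) and 2.40 for Wfdc17 (adjusted p 0.0121). Cdsn, corneodesmosin, was lower in replicates 1 and 2 at 7.36, 2.54, 24.8 and 23.3 (difference -2.33, adjusted p 0.000257). Gm12671, Gm10359 and Gm7336 carried identical values (difference -2.48) and are copies of one sequence, and Snord68 also shares its whole sequence with another gene, so these 4 are uncertain.

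Markers of other cell types differed too. Of 17 macrophage genes 12 were higher in CC004 and 0 lower by limma, where 10.7% of all genes were higher and 7.93% lower. At an unadjusted p under 0.05, 14 were higher and 0 lower, where 31.9% of all genes passed in either direction. The median difference of the 17 genes was 1.08. Their summed level was 1607, 2488, 575 and 698 scaled TPM in replicates 1 to 4, and the means of the other strains ran from 67.4 to 4980 with a median of 428. C1qb, a complement component made by macrophages, was at 107, 145, 28.55 and 37.99 against 38.29 (difference 1.70, adjusted p 0.000151), and Mrc1, the mannose receptor, at 78.03, 163.8, 17.92 and 20.36 against 29.98 (difference 1.68, adjusted p 0.00163). Only replicates 1 and 2 were above the mean of the other strains for C1qb and for Mrc1.

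The macrophage count depended on that pair. Without replicate 1 it was 7 and without replicate 2 it was 5. It was 14 for replicates 1 and 2 against libraries of near title numbers, where it was 0 for replicates 3 and 4 by limma (5 at an unadjusted p under 0.05). In the averaged fit the adjusted p of the 12 ran from 0.069 (C1qb) to 0.40. In the fit between the pairs 9.49% of all genes were higher in replicates 1 and 2 and 7.56% lower. Between the pairs 10 of the 17 were higher in replicates 1 and 2 and 1 lower, but 0 without replicate 2 by limma (11 at an unadjusted p under 0.05), 1 without replicate 3 and 5 without replicate 4. In bulk RNA, more cells of a type and more RNA per cell cannot be told apart, and the part of macrophage RNA in the other differences was not tested.

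Of 12 osteoclast genes listed, 8 had enough expression to be tested. Of these, 5 were higher, against 10.7% of all genes: Mmp9 (1.58), Tnfrsf11a (0.69), Acp5 (0.59), Ctsk (0.37) and Itgb3 (0.35). The count was 4 without replicate 2, and 1 of the 8, Ctsk, was called in the averaged fit. Acp5, tartrate-resistant acid phosphatase, was at 9.17, 8.98, 9.17 and 11.4 scaled TPM against 6.65, so unlike the macrophage genes it was level between the pairs. Tnfrsf11a, the receptor RANK, was at 1.79, 1.71, 1.12 and 0.915 against 0.8289.

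Of 11 adipocyte genes 5 were higher (Adipoq, Plin1, Pparg, Plin4 and Pck1), against 10.7% of all genes, and 1 without replicate 2. The summed level of the list was 76.0, 273, 31.3 and 26.6 scaled TPM against a strain median of 32.001. Adipoq, adiponectin, was at 0.389, 16.8, 0 and 0.0296, and Fabp4, a fatty acid carrier, at 1.29, 59.1, 0.627 and 0.896, so replicate 2 alone was high. Pparg, the regulator of fat cell formation, was instead above the strain mean of 3.67 in all 4 at 5.01, 8.47, 7.11 and 5.78 against 1.37 to 5.63 (difference 0.83, adjusted p 0.00396, and 0.282 in the averaged fit). The part of fat-lineage RNA in the other values of replicate 2 was not tested.

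**Figure D4:**
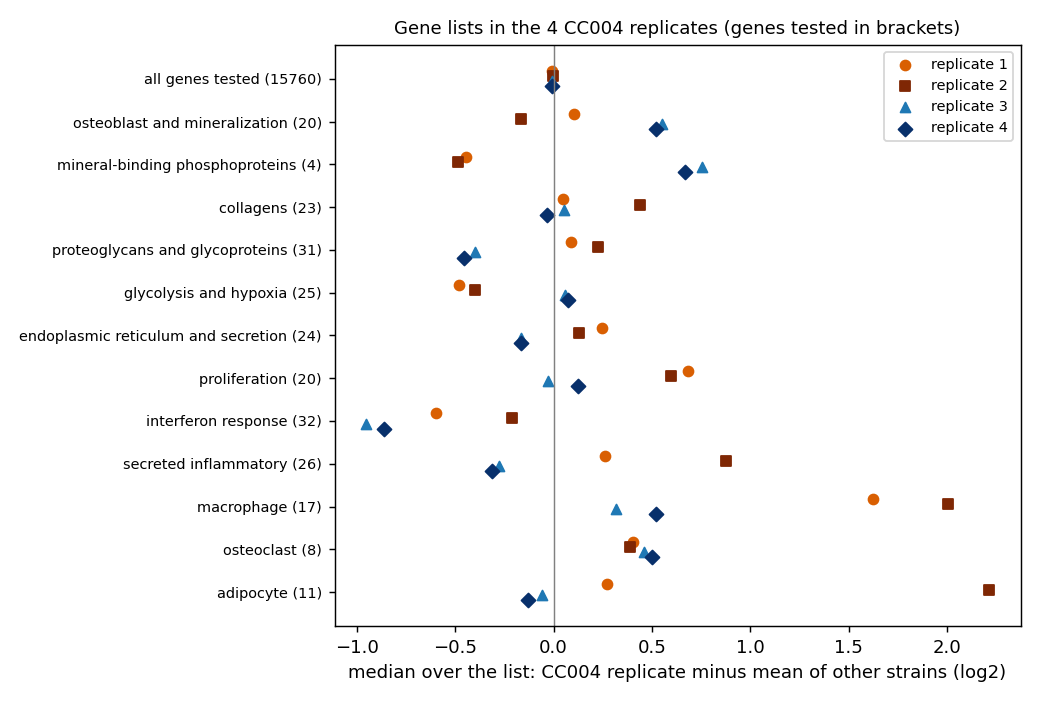
Median over each gene list of a CC004 library minus the mean of the 38 other strains (log2), with the number of genes tested in brackets. The 4 libraries lie together at 0 for all genes; replicate 2 stands at 2.21 for adipocyte genes, replicates 1 and 2 at 1.62 and 2.00 for macrophage genes, and replicates 3 and 4 above replicates 1 and 2 for bone genes.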

How the data were processed

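Total RNA libraries were made from 200 ng of RNA per sample, per the labels' protocols. The authors deposited a table of TPM per transcript for 96 samples, in which every column sums to 1000000; the submitters' processing notes name the build mm9 and Bowtie, with no version, and the quantification tool is not stated in the sources used here. TPM keeps no depth, so no counting error could be computed, and each strain's precision rests on its number of libraries.

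Of 94546 rows, 91225 were matched to GENCODE M21 by transcript identifier and summed into 37945 genes; 3320 were unmatched, and 1 row named no transcript and held 0 TPM. Matched rows held a median of 98.2% of a library's TPM (lowest 97.4%). Samples with title numbers 129 and 129-2 were averaged as 1 library, which left 95 libraries. TPM was divided by a trimmed mean of log ratios against the mean library (30% trimmed by ratio and 5% by level, over genes whose mean was 1 TPM or more), and factors ran from 0.773 to 1.27.

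The 15760 genes with at least 0.5 TPM in at least 2 libraries were fitted as log2(scaled TPM + 0.5) in limma 3.58.1 (R 4.3.3) with 1 mean per strain over 39 strains and 92 libraries, an intensity trend and 53 residual degrees of freedom. P-values were adjusted by Benjamini and Hochberg jointly over all strains and genes. The difference between pairs of CC004 libraries was fitted with 1 mean per run of title numbers (62 runs, 30 residual degrees of freedom). Differences averaged over title numbers, libraries of near numbers, scaling, filter, pseudocount and each library left out were tried as alternatives. The share of a gene's stretches of 31 bases that occur in other genes was computed from GENCODE transcripts, and genes at 30% or more are called uncertain. The fit was tested on simulated data. Tables and figures were made in Python 3.11.15 with numpy 2.4.6, pandas 2.3.3 and matplotlib 3.10.9.

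Genes named were the largest and most certain differences in each direction, those beyond every other library, called members of bone, matrix and signalling lists, the largest differences between the pairs and 4 genes from published work. The members and lists were chosen with earlier results of these data known. Some genes that entered the fits and counts are not reported here by name.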

Additional observations from a re-analysis of the deposited data

Results flagged for a closer look

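In 13 of 171 genes named or examined, 1 of the 4 CC004 libraries lay apart from the other 3 by more than Dixon's 95% critical value for 4 samples, as did 2 of 39 list medians. Over all tested genes 1019 (6.47%) did so, and chance gives about 1 in 20.

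Replicate 2 was the one apart in 8 of the 13 genes. The fat-lineage genes stood high in it: Adipoq at 16.8 scaled TPM, Fabp4 at 59.1, Plin1 at 5.37, Pck1 at 1.90 and Plin4 at 4.12, and the median difference of the adipocyte list from the other strains was 2.21 on the log2 scale. Fgf23 stood at 0.520 and Il33, an alarm cytokine, at 5.87 in the same library, and the ribosomal protein copy Gm9396 was lowest there at 116. The median of the matrix protease list was 0.022 in replicate 2 and between -0.14 and -0.15 in the other 3.

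Replicate 4 was apart in 4 genes. Ddx3y was at 0.213 and Xist at 39.01 scaled TPM there, and Acp5 was at 11.4. Gm24727 was at 0.386 in it and listed at 0 in the other 3. In replicate 3, Snord49b was at 128.4 and the other 3 were listed at 0.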

How the results depend on the processing

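The count of genes called against the other strains was 685 (390 higher, 295 lower) with close-numbered libraries averaged, 1364 (571 and 793) for replicates 3 and 4 against near numbers, and 664 were lower without scaling. It ran from 2882 to 3258 when 1 library of another strain was left out. For the difference between the pairs, 3535 were higher and 352 lower without scaling, and 1459 (867 and 592) were called with the spread taken from strains with 4 libraries. Leaving out 1 CC004 library gave 1019 to 2503 calls between the pairs, 512 to 1447 higher and 507 to 1056 lower. Genes beyond every other library numbered 10 to 20 above and 7 to 11 below when 1 CC004 library was left out, which can only keep or raise these counts. Without scaling, 2 lay below.

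Against near numbers, the direction turned for Spp1 (-0.86), Ibsp (-0.63), Snord68 (-0.34) and Gm12671, Gm10359 and Gm7336 (-0.68 each) with replicates 1 and 2. It turned with replicates 3 and 4 for Fgf23 (-0.052), Cilp (-0.30), Timp2 (0.0088), Egfl6 (-2.12), Ccl8 (-2.50), Wfdc17 (-1.55), Otor (-0.50), Adipoq (-0.26), Plin1 (-0.085), Lpl (-0.78), Pck1 (-0.063), Cd68 (-0.0073), Adgre1 (-0.034), Mrc1 (-0.065) and Gstt1 (-0.17). Pck1 ran from -0.038 (without replicate 2) to 0.72 when 1 library was left out, and Commd8 was 0.049 between the pairs without scaling. The cause was not tested. Of the 149 genes called among the 171 examined, 85 lost their call with close-numbered libraries averaged, a setting with fewer samples. No paired analysis was possible because replicate numbers follow accession order and pair no samples across strains.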

Other observations

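Some genes outside the bone and signalling lists lay on one side of the mean of the other strains in all 4 CC004 libraries. Glo1, glyoxalase, which varies in copy number among mouse strains, was at 77.8, 69.7, 62.9 and 67.8 scaled TPM in replicates 1 to 4 against a mean of 48.7 (difference 0.62, adjusted p 5.37e-15 by limma), with 10 strains above CC004. Gsta4, a glutathione transferase for lipid peroxidation products, was the highest of the 39 strains at 19.96, 20.01, 10.37 and 11.97 against a mean of 6.55 (difference 1.41, adjusted p 3.81e-08), and Gstm2, of another class of that enzyme family, was low at 23.5, 31.97, 8.73 and 10.9 against 48.4 (difference -1.31, adjusted p 3.55e-08).

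Of 13 tendon and suture genes 5 were higher and 2 lower, where 10.7% and 7.93% of all genes were, and 4 of these calls were also made in the averaged fit (Scx, Thbs4, Ctsk and Aldh1a2). Scx, scleraxis, a transcription factor of tendon, was at 4.80, 2.28, 6.53 and 6.31 scaled TPM against 10.0 (difference -0.96, adjusted p 7.12e-06 by limma), while Aldh1a2, which makes retinoic acid, was at 4.59, 8.19, 4.79 and 6.55 against 3.40 (difference 0.92, adjusted p 0.000524) and Postn, periostin, at 447.1, 378.1, 578.1 and 564.8 against 356.7 (difference 0.54, adjusted p 0.00603). Matn1, a cartilage matrix protein, was at 0.507, 0.452, 1.35 and 1.01 against 0.169 (difference 1.04, adjusted p 2.69e-11). Rgs5, a marker of pericytes, was above every other strain mean in replicate 2 (3.91) and replicate 1 (0.630), and at 0.279 and 0.394 in replicates 3 and 4.

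Of 25 glycolysis and hypoxia genes 3 were lower in CC004 and 0 higher by limma (the same 3 and 0 at an unadjusted p under 0.05): Car9 (-1.24), Ndrg1 (-0.84) and Eno1 (-0.55). Over all genes 7.93% were lower, and 31.9% passed the unadjusted threshold in either direction. The count of lower genes was 1 without replicate 2, and 0 of the 25 were called in the averaged fit. The list median was -0.48 and -0.40 in replicates 1 and 2 and 0.057 and 0.076 in replicates 3 and 4. Car9 and Eno1 were the lowest of the 39 strains. Of 24 cholesterol synthesis genes 2 were lower, among them Pmvk (-1.15), a share near that over all genes.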
